A study of Mus musculus with 10 samples.

Results

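The genes described here encode the kinesins, cytoplasmic dyneins and dynactin, the motors that carry cargo along microtubules. They were taken by gene symbol: every protein-coding gene whose symbol names a kinesin (Kif), a kinesin light chain (Klc1 to Klc4), a cytoplasmic dynein chain (Dync1, Dync2, Dynll, Dynlrb, Dynlt) or one of the 6 Dctn subunits of dynactin. This gave 69 genes of 21877 protein-coding genes and 55416 genes in all. The symbol rule also takes in Kif1bp, a kinesin-binding protein that is not a motor itself. The rule uses no measured value, although the members were chosen with earlier results of these data known. Exons of 21 of the 69 overlap a gene on the other strand, and Kif20a is the 1 among them that passed the main antibody test below. Dync1h1, Kif18a and Kif5b are also among them and passed only in alternative settings. Klc1, named below for its level, is among them as well.

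RNA recovered with antibodies to Musashi1 and Musashi2 was sequenced from mouse pituitary, and the comparison asks which motor mRNAs came down with the antibodies in excess of a control. Each lysate was prepared from 6 pituitaries of control mice, aged 8 to 10 weeks, of the sighted FVB strain (FVB.129P2-Pde6b+ Tyrc-ch/Ant), and was split in equal parts between the Musashi1 and Musashi2 antibodies pooled (Musashi IP) and rabbit IgG. The 10 libraries came from 5 lysates, numbered 2, 5 and 6 from females and 3 and 7 from males; a further male pair named by the protocol was not analysed here. All groups share the strain, age and tissue, every lysate pools several animals, and binding by Musashi1 and by Musashi2 cannot be told apart. No library of the unfractionated lysate was used, so a level in IgG is that of RNA recovered nonspecifically and not that of the tissue. In whole glands, fewer cells of a type and less RNA per cell cannot be told apart.

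Musashi proteins bind short motifs around a UAG core, mostly in 3' untranslated regions (UTRs), and regulate the translation of the mRNAs they bind. Most kinesins walk towards the plus ends of microtubules, which in most cells point to the periphery, while cytoplasmic dynein-1, with its cofactor dynactin, walks towards the minus ends. In endocrine cells such as those of the pituitary these motors move hormone granules, mitochondria and other organelles, dynein-2 and kinesin-2 serve the primary cilium, and a further set of kinesins builds the mitotic spindle.

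IgG libraries held 7.62 ± 1.08 M counts (mean ± SD, n = 5; 6.67 to 9.35 M) and Musashi IP libraries 10.4 ± 1.89 M (n = 5; 8.74 to 13 M). The tissue label was met by the hormone cell markers, all 10 of which were tested, with summed levels of 13810 to 52790 CPM (counts scaled by library size) in IgG and 15390 to 41330 CPM in Musashi IP. Lysate 6 stood apart: the SD over protein-coding genes of its log2 ratio of Musashi IP to IgG was 0.977, against 0.450 to 0.621 in the other 4 lysates. Leaving lysate 6 out changed none of the 14 calls on motor genes given below. IgG of lysate 2 also stood apart, with summed endothelial markers of 290.7 CPM against 65.2 to 109.5 CPM in the other IgG libraries and red cell markers of 1249 against 460.5 to 651.6 CPM; leaving lysate 2 out ended the calls of Dync2li1, Kif13b and Kif20a. Of 4 red cell markers tested 3 were lower in Musashi IP and of 5 immune markers 2, where 4.01% of protein-coding genes were lower. The part of these cells in the results was not tested.

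As a class, the motor genes took a similar share of counts in both groups, and individual members stood out within it. They held 0.579 ± 0.0273% of counts in IgG (0.553 to 0.621%) and 0.582 ± 0.0261% in Musashi IP (0.546 to 0.613%; SD, n = 5 each), and these ranges overlap. Of the 69 genes, 64 had enough counts to be tested, and 11 were higher in Musashi IP, 3 lower and 50 did not pass (edgeR's quasi-likelihood test with the lysate as a block, Benjamini-Hochberg adjusted p under 0.05 over 20550 genes). The 11 higher genes are 17.2% of those tested, where 25.7% of 14200 protein-coding genes and 18.5% of all genes tested were higher; 26.9% of all genes passed in either direction. The 3 lower genes are 4.69%, where 4.01% of protein-coding genes and 8.40% of all genes were lower. The share of higher genes thus lay below that of protein-coding genes, and the share of lower genes near it. Of the 64, 16 were higher in 5 of 5 lysates and 10 in 0 of 5. Among the 14200 protein-coding genes these numbers were 4422 and 1789, so one direction in all 5 lysates is common. The 5 genes not tested were Kif2b, with 0 counts in all 10 libraries (a 0 allows up to 3 counts in a library), Kif28, with 1 count in each of 2 libraries, and Kif18b, Kif2c and Dynlt1b, each under 2 CPM on average. The median log2 fold change of the motor genes was 0.02, that of all genes tested -0.07 and that of protein-coding genes 0.09, while single members ran from -0.75 to 2.20.

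The genes with the largest values were Dynll2 (4.58-fold), Kif3b (2.20-fold), Dctn4 (1.96-fold), Dctn5 (1.85-fold) and Kif5c (1.83-fold), a dynein light chain, a kinesin-2 motor subunit, a pair of dynactin subunits and a kinesin-1 heavy chain. These 5 passed the test in the main fit and in each of 14 alternatives. In 7 of the 64 genes every Musashi IP library lay above every IgG library in CPM (the same 5, Kif1a and Dync1li2), against 13.6% of protein-coding genes, and in 0 genes did all lie below, against 1.34%. Without lysate 6 the log2 fold changes of the 5 leading genes were 1.90 (Dynll2), 0.96 (Kif3b), 0.77 (Dctn4), 0.70 (Dctn5) and 0.70 (Kif5c), and all 5 passed. The split between directions changed with the setting. With libraries scaled by their totals alone, 10 motor genes were higher and 10 lower. That scaling moved the median of all genes by -0.18 and that of the motor genes to -0.17.

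**Figure D1:**
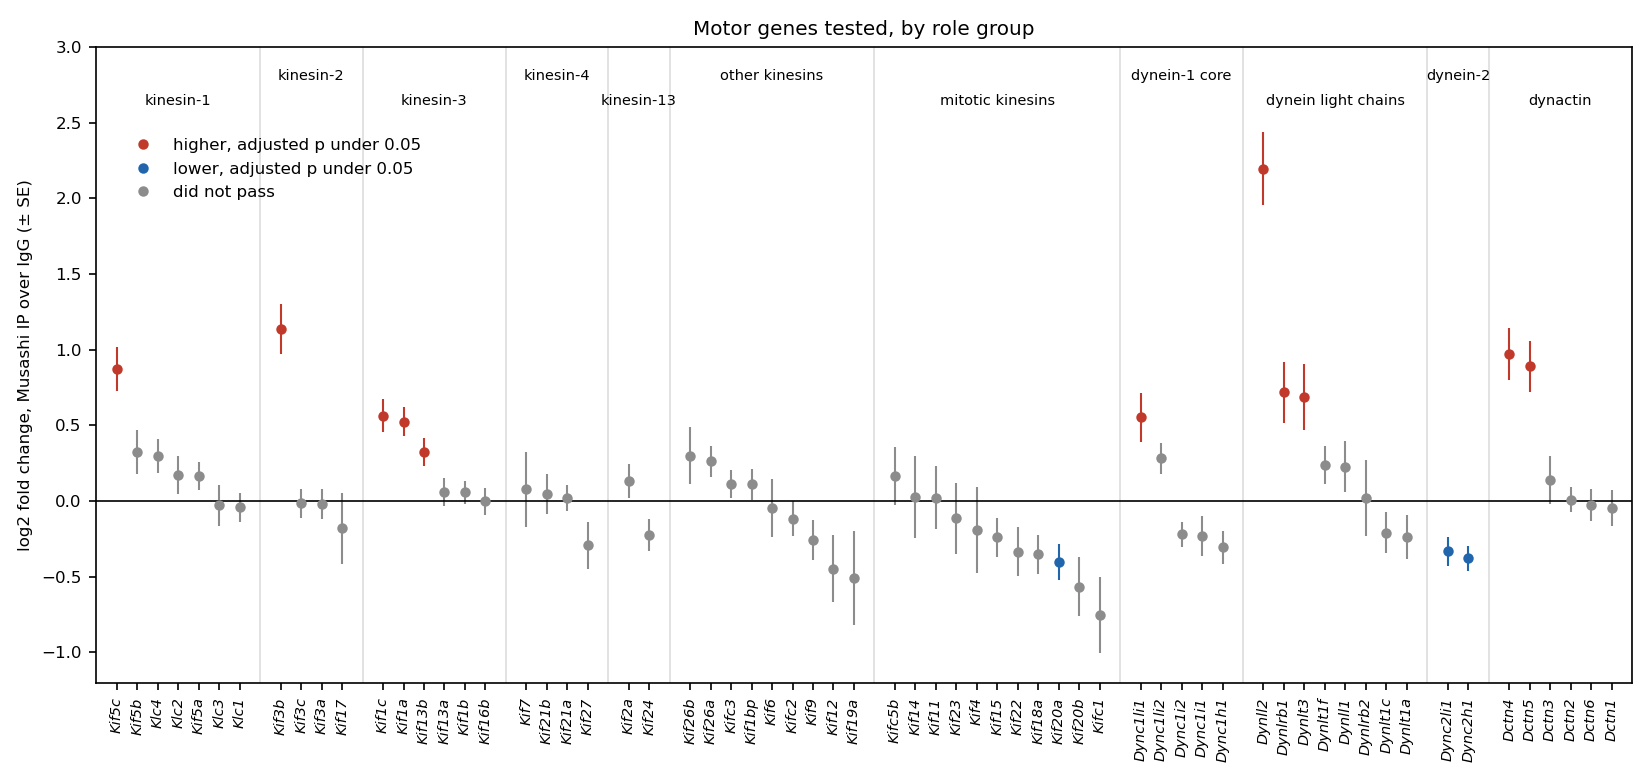
Log2 fold change of Musashi IP over IgG (vertical axis, edgeR estimate, bars ± SE, 5 lysates) for the 64 motor genes tested, ordered within role groups; colour gives the direction of genes past adjusted p under 0.05. Most genes lie near 0, with Dynll2 at 2.20 and Kif3b at 1.14 above the rest and Kifc1 lowest at -0.75, which did not pass.

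Kinesin-1 is the main plus-end motor for organelles and vesicles and is built from a dimer of heavy chains (Kif5a, Kif5b or Kif5c) with a dimer of light chains (Klc1 to Klc4). Of its 7 genes, 1 was higher (14.3%, beside 25.7% of protein-coding genes) and 0 lower (median 0.17 on the log2 scale). It was Kif5c, a heavy chain best known from neurons. In lysates 2, 3, 5, 6 and 7 Kif5c stood at 335, 249, 287, 249 and 238 CPM in IgG and at 492, 363, 505, 735 and 445 CPM in Musashi IP. All 5 Musashi IP values lay above all 5 IgG values, with the highest in lysate 6. Its log2 fold change was 0.87 ± 0.15 (SE, adjusted p = 0.00539, edgeR). Of 7 neuron markers 5 were tested and 2 were higher (40%, beside 25.7% of protein-coding genes), Nefl (2.13 ± 0.28) and Slc17a6 (0.86 ± 0.20). The summed level of the list was 39.5 to 79.5 CPM in IgG and 53.5 to 171.5 CPM in Musashi IP, higher in 5 of 5 lysates. The hormone mRNAs of the posterior lobe, Avp and Oxt, were too low to test at about 1 CPM. The part of neuronal RNA in the result was not tested.

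The other heavy chains gave smaller values. Kif5a, also a neuronal form, went from 115 ± 25.5 to 128 ± 24.6 CPM (log2 0.17 ± 0.09, adjusted p = 0.195, edgeR), and its groups overlapped. Kif5b, the ubiquitous form, stood at 183, 134, 143, 115 and 159 CPM in IgG and 151, 171, 175, 208 and 212 CPM in Musashi IP, so that it was lower in lysate 2 and higher in the other 4. It did not pass in the full set (0.33 ± 0.15, adjusted p = 0.125, edgeR) and did without lysate 2 (0.48, adjusted p = 0.0242). The single-lysate log2 ratio of Kif5c exceeded that of Kif5a by 0.71 ± 0.48 and that of Kif5b by 0.55 ± 0.24 (SD, n = 5), in 5 of 5 lysates each. Among light chains Klc1, which couples the motor to cargo adaptors, had the highest level per length of all 64 genes in IgG, at 94.6 ± 15.2 CPM per kb of its longest coding transcript. It did not pass, at 237 ± 38.0 CPM in IgG and 232 ± 51.9 CPM in Musashi IP (log2 -0.04 ± 0.09, adjusted p = 0.760). Klc2, Klc3 and Klc4 lay between -0.03 and 0.30 and did not pass.

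The differences between partner or related genes quoted here and below are of log2 ratios within a lysate, in which the scaling of libraries cancels. They were taken over 14 pairs, chosen with the values known. An exact sign-flip test over 5 lysates cannot give a p below 0.0625 (two-sided), which is 0.0795 after Benjamini-Hochberg adjustment over the 14 pairs. Of the pairs, 11 reached that value, with every lysate in one direction. The pairs Dynlrb1 and Dynlrb2 (exact p = 0.125), Kif21a and Kif21b (exact p = 0.9375) and Dync1i2 and Dync1i1 (exact p = 0.875) did not. No pair can therefore pass a threshold of 0.05 in this design.

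Kinesin-2 is a heterotrimer that carries cargo into cilia and along axons, in which Kif3a pairs with Kif3b or with Kif3c and binds the accessory subunit Kifap3. Of 4 genes, 1 was higher (25%, beside 25.7% of protein-coding genes) and 0 lower (median -0.02). Kif3b stood at 62.6, 57.4, 57.8, 55.8 and 54.5 CPM in IgG and at 96.3, 105, 125, 200 and 128 CPM in Musashi IP for lysates 2, 3, 5, 6 and 7. The IgG libraries spread little (57.6 ± 3.11 CPM), and every Musashi IP library lay well above them (131 ± 41.0 CPM). The log2 fold change was 1.14 ± 0.16 (adjusted p = 0.00387, edgeR).

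The other subunits of these trimers, Kif3a, Kif3c and Kifap3, did not pass. Kif3a had 50.6, 61.0, 51.2, 59.0 and 53.3 CPM in IgG and 43.6, 56.4, 54.5, 57.9 and 59.8 CPM in Musashi IP (log2 -0.02 ± 0.10, adjusted p = 0.883, edgeR). Kif3c went from 55.2 ± 3.42 to 54.8 ± 6.0 CPM (-0.02 ± 0.10, adjusted p = 0.915) and Kifap3 from 70.4 ± 4.54 to 69.5 ± 9.55 CPM (-0.03 ± 0.10, adjusted p = 0.863). The groups of Kif3a and Kif3c overlapped. The ratio of Kif3b exceeded that of Kif3a by 1.15 ± 0.41 (0.83 to 1.87) and that of Kif3c by 1.15 ± 0.57 (SD, n = 5 lysates). Kif17, a homodimeric kinesin-2 of dendrites and cilia, was near 5 CPM and did not pass (-0.18 ± 0.23).

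Kinesin-3 motors carry dense-core and synaptic vesicles. Of their 6 genes, 3 were higher (50%, beside 25.7% of protein-coding genes) and 0 lower (median 0.19). Kif1a, a motor of dense-core vesicles, stood at 519, 498, 504, 568 and 399 CPM in IgG and at 757, 581, 696, 957 and 621 CPM in Musashi IP, with no overlap between groups (log2 0.52 ± 0.10, 1.44-fold, adjusted p = 0.00685, edgeR). Its close relative Kif1b, which moves mitochondria and synaptic vesicle precursors, stood at 468, 443, 472, 505 and 429 CPM in IgG and 480, 453, 495, 546 and 444 CPM in Musashi IP. Kif1b was thus higher in each lysate by at most 0.11 on the log2 scale, and its fitted value of 0.06 ± 0.07 did not pass (adjusted p = 0.571). The ratio of Kif1a exceeded that of Kif1b by 0.46 ± 0.18 in 5 of 5 lysates.

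Kif1c, which carries vesicles and mRNAs, went from 42.6 ± 8.68 to 62.9 ± 12.3 CPM (0.57 ± 0.11, adjusted p = 0.00906, edgeR) and was higher in 5 of 5 lysates, although the groups overlapped. Kif13b, a vesicle motor, went from 226 ± 31.1 to 283 ± 33.3 CPM (0.32 ± 0.09, adjusted p = 0.0328). Kif13a and Kif16b, motors of endosomes, lay at 0.06 and -0.00. Correcting each library for transcript length and GC content lowered Kif1a to 0.26 (adjusted p = 0.0467) and ended the calls of Kif1c (0.28, adjusted p = 0.0548) and Kif13b (0.08, adjusted p = 0.449). Without lysate 7 all 3 lost their calls (adjusted p = 0.0552, 0.0534 and 0.190), Kif13b also without lysate 2, 3 or 5 (0.0552, 0.0669 and 0.0852), and in all it passed in 5 of 15 settings.

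**Figure D2:**
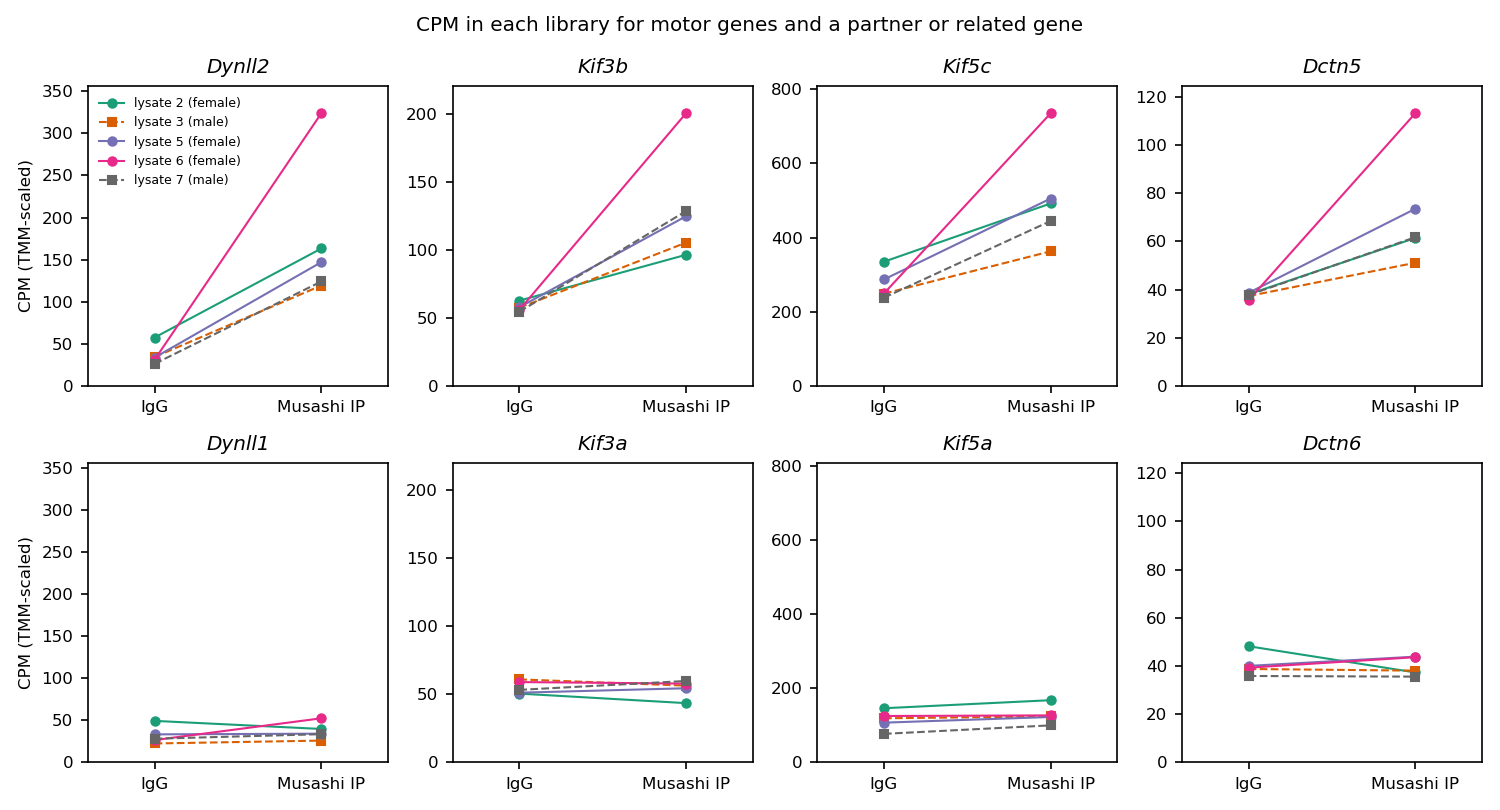
CPM in the IgG and Musashi IP libraries of each of the 5 lysates (lines join a lysate, solid for females and dashed for males) for 4 motor genes in the upper row and a partner or related gene of each in the lower row, on a shared linear axis within a column. Dynll2, Kif3b, Kif5c and Dctn5 climb in all 5 lysates, most in lysate 6, while Kif3a, Kif5a, Dynll1 and Dctn6 stay within overlapping ranges.

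Among the remaining kinesins that act outside mitosis, 0 genes were higher and 0 lower. The 4 nonmitotic kinesin-4 genes had a median of 0.03; the one with the most counts, Kif21a, which restrains microtubule growth, held 121 ± 3.76 CPM in IgG and 123 ± 4.31 CPM in Musashi IP (0.02 ± 0.08, adjusted p = 0.873, edgeR). Kif2a, a kinesin-13 that takes microtubules apart, stood at 68.7 ± 6.14 and 75.7 ± 9.98 CPM (0.13 ± 0.11, adjusted p = 0.374). Of 9 other kinesins tested none passed, in a range from -0.51 for Kif19a to 0.30 for Kif26b. Kif26a, a kinesin of the noncanonical Kif26 pair, was higher in 5 of 5 lysates without passing (0.26 ± 0.10, adjusted p = 0.0866).

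Mitotic kinesins build and move the spindle. Of 13, 11 were tested, with 0 higher, 1 lower (9.09%, beside 4.01% of protein-coding genes) and a median of -0.24. Kif20a, needed for cytokinesis, stood at 9.96, 10.4, 11.4, 13 and 11.8 CPM in IgG and at 7.06, 7.81, 8.76, 10.8 and 8.53 CPM in Musashi IP. It was lower in 5 of 5 lysates while the groups overlapped, and passed at -0.40 ± 0.12 (adjusted p = 0.0373, edgeR). Its exons overlap those of Cdc23 on the other strand, and the strand setting of the counting is not given in the sources used here, so its reads cannot be told apart from those of Cdc23.

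The Kif20a call was lost with DESeq2 (adjusted p = 0.0817), and in edgeR with no lysate block (0.140), without a low-count filter (0.107) and without lysate 2, 5 or 7 (0.0684, 0.165 and 0.0969). Kifc1 (-0.75 ± 0.25, adjusted p = 0.0543) and Kif20b (-0.56 ± 0.19, adjusted p = 0.0589) were lower in 5 of 5 lysates as well, at 1.84 to 6.04 CPM on average, and did not pass. Kifc1 passed with DESeq2 size factors, library totals, either other low-count filter, the length and GC correction, protein-coding genes alone and without lysate 2. The near-identical Kifc5b was higher in 4 of 5 lysates and did not pass (0.17 ± 0.19, adjusted p = 0.520, edgeR). How the counting divided reads between these genes is not given. Kif20b and Kif18a (-0.35 ± 0.13 in the main fit) passed as lower with library totals, the 2 CPM filter, protein-coding genes alone and without lysate 3. Of 8 proliferation markers 6 were tested, 0 passed in either direction, and the summed level of the list was 19.5 to 53.5 CPM in IgG and 21.1 to 45.2 CPM in Musashi IP, lower in 4 of 5 lysates. Their part in the result was not tested.

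Cytoplasmic dynein-1 is a dimer of a motor heavy chain (Dync1h1) with intermediate chains (Dync1i1, Dync1i2), light intermediate chains (Dync1li1, Dync1li2) and light chains. Of the 5 heavy, intermediate and light intermediate chain genes, 1 was higher (20%, beside 25.7% of protein-coding genes) and 0 lower. Their median was -0.22. The heavy chain stood at 1042, 1023, 926, 987 and 936 CPM in IgG and 999.8, 902, 782, 581 and 772 CPM in Musashi IP. It was lower in 5 of 5 lysates, most in lysate 6, and the groups overlapped. In the main fit it did not pass (-0.31 ± 0.11, adjusted p = 0.0661, edgeR). It passed as lower with library totals (-0.48, adjusted p = 0.0341), with no low-count filter (adjusted p = 0.0295), with the 2 CPM filter (adjusted p = 0.0338), after the length and GC correction (-0.43, adjusted p = 0.0258) and without lysate 2 or 6 (adjusted p = 0.0491 and 0.0473).

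The light intermediate chains, which tie dynein to its cargo adaptors, lay on the other side of 0. Dync1li1 stood at 61.3, 52.6, 53.5, 51.7 and 52.0 CPM in IgG and at 66.3, 60.0, 80.7, 122 and 80.7 CPM in Musashi IP, higher in 5 of 5 lysates with the groups overlapping through lysates 2 and 3 (0.55 ± 0.16, adjusted p = 0.0353, edgeR). The call was lost without lysate 5 (adjusted p = 0.0728) or 7 (adjusted p = 0.108). Dync1li2 had 134, 121, 123, 119 and 115 CPM in IgG and 136, 136, 151, 180 and 144 CPM in Musashi IP. Its groups did not overlap, and its adjusted p was 0.0704 (0.28 ± 0.10). The intermediate chain Dync1i2, which carries dynactin and the light chains, was lower in 5 of 5 lysates and did not pass, going from 131 ± 8.53 to 113 ± 9.72 CPM (-0.22 ± 0.08, adjusted p = 0.0783); it passed as lower with library totals (adjusted p = 0.0167), the 2 CPM filter (0.0247) and protein-coding genes alone (0.0280).

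Light chains sit on the intermediate chains as dimers, and the LC8 pair Dynll1 and Dynll2 also binds many proteins outside dynein. Of 9 light chain genes 8 were tested, with 3 higher (37.5%, beside 25.7% of protein-coding genes), 0 lower and a median of 0.23. Dynll2 had the largest fold change of all motor genes. It stood at 57.5, 34.3, 33.7, 31.2 and 26.3 CPM in IgG and at 163, 119, 147, 324 and 124 CPM in Musashi IP for lysates 2, 3, 5, 6 and 7. Each Musashi IP value was more than any IgG value; IgG of lysate 2 and Musashi IP of lysate 6 lay above the rest of their groups. The log2 fold change was 2.20 ± 0.24 (4.58-fold, adjusted p = 0.00336, edgeR), and across all settings it ran from 1.90 to 2.38.

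Dynll1, the other LC8 gene, stood at 49.3, 22.5, 33.3, 26.6 and 28.1 CPM in IgG and 39.7, 25.9, 34.2, 52.4 and 33.5 CPM in Musashi IP. It was lower in lysate 2, higher in the other 4, and did not pass (0.23 ± 0.17, adjusted p = 0.327, edgeR). The ratio of Dynll2 exceeded that of Dynll1 by 1.97 ± 0.30 (1.59 to 2.39, SD, n = 5 lysates).

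A pair of light chains from the other families was higher with less even support. Dynlrb1, a roadblock light chain, had 17.1, 8.35, 11.1, 9.74 and 5.5 CPM in IgG and 16.4, 12.9, 17.2, 24.1 and 12.5 CPM in Musashi IP, higher in 4 of 5 lysates (0.72 ± 0.20, adjusted p = 0.0302, edgeR). Dynlt3, a Tctex-type light chain, had 38.8, 29.8, 35.0, 32.6 and 37.7 CPM in IgG and 41.2, 35.9, 65.6, 108 and 51.5 CPM in Musashi IP (0.69 ± 0.22, adjusted p = 0.0474), and without lysate 6 its log2 fold change was 0.43 (adjusted p = 0.0311). Both lost their calls without lysate 3, 5 or 7 (Dynlrb1 0.0639, 0.0549 and 0.109; Dynlt3 0.0568, 0.107 and 0.0801) and without the lysate block (0.142 and 0.0668), and Dynlt3 also with DESeq2 size factors (0.0572). The near-identical Dynlt1 genes, whose reads the counting may have split between copies, did not pass (Dynlt1a -0.24, Dynlt1c -0.21, Dynlt1f 0.24).

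Dynein-2 returns intraflagellar transport trains from the tip of the cilium, with Dync2h1 as its heavy chain and Dync2li1 as its light intermediate chain. Both Dync2 genes were lower, where 4.01% of protein-coding genes were; other dynein-2 chains, whose symbols differ, are not among the genes taken here. Dync2h1 stood at 415, 530, 427, 432 and 589 CPM in IgG and at 317, 452, 341, 290 and 457 CPM in Musashi IP. The groups overlapped while each lysate was lower, by 0.23 to 0.57 on the log2 scale, and the fitted value was -0.38 ± 0.08 (adjusted p = 0.0136, edgeR). Dync2li1 went from 32 ± 8.41 to 25.3 ± 5.82 CPM, also lower in 5 of 5 lysates (-0.33 ± 0.10, adjusted p = 0.0331).

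The Dync2h1 call was lost without the lysate block (adjusted p = 0.179, edgeR) and without lysate 5 (adjusted p = 0.0980). That of Dync2li1 was lost under 7 of the 14 alternatives, among them no lysate block (adjusted p = 0.296), the length and GC correction (-0.20, adjusted p = 0.146) and leaving out lysate 2, 5 or 7 (adjusted p = 0.0639, 0.216 and 0.0744). Of 7 markers of multiciliated cells, all tested, 2 were higher (Foxj1 at 1.81 ± 0.38 and Rsph1 at 0.70 ± 0.20) and 1 was lower (Ccdc39 at -0.48 ± 0.10). These are 28.6% and 14.3%, beside 25.7% and 4.01% of protein-coding genes. The summed level of the markers was 132.6 to 254.7 CPM in IgG and 102.5 to 229.7 CPM in Musashi IP. It was lower in 5 of 5 lysates. The median log2 ratio over the 7 markers was 0.05, -0.10, 0.08, 0.22 and 0.07 in lysates 2, 3, 5, 6 and 7, so the sum and the median marker differed in direction in most lysates. Their part in the result was not tested.

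Dynactin links dynein to cargo and makes it processive. It consists of a projecting arm (Dctn1 with Dctn2 and Dctn3), a short filament of actin-related protein (Actr1a, Actr1b), a cap on its barbed end (CapZ, from Capza1, Capza2 and Capzb) and a pointed-end complex (Dctn4, Dctn5, Dctn6 and Actr10). Of the 6 Dctn genes, 2 were higher (33.3%, beside 25.7% of protein-coding genes), both of the pointed end, and 0 lower (median 0.07). Dctn4 stood at 112, 92.5, 121, 116 and 119 CPM in IgG and at 157, 152, 246, 399 and 219 CPM in Musashi IP. Dctn5 stood at 38.0, 37.3, 38.6, 35.6 and 37.7 CPM in IgG and at 61.4, 51.1, 73.5, 113 and 61.7 CPM in Musashi IP. In both genes every Musashi IP library lay above every IgG library, with lysate 6 highest. The log2 fold changes were 0.97 ± 0.17 for Dctn4 (adjusted p = 0.00605, edgeR) and 0.89 ± 0.17 for Dctn5 (adjusted p = 0.00754).

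The other subunits of the pointed end did not pass. Dctn6, which pairs with Dctn5, stood at 48.2, 38.8, 40.1, 39.3 and 35.9 CPM in IgG and 37.3, 38.1, 43.9, 43.7 and 35.6 CPM in Musashi IP (-0.03 ± 0.11, adjusted p = 0.870, edgeR). The ratio of Dctn5 exceeded that of Dctn6 by 0.91 ± 0.39 in 5 of 5 lysates. Actr10 lay at 0.07 ± 0.13 (adjusted p = 0.687). The arm subunits Dctn1 (-0.04 ± 0.12), Dctn2 (0.01 ± 0.08) and Dctn3 (0.14 ± 0.16) did not pass either.

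Of the 6 dynactin genes whose names are not Dctn, 3 were higher and 0 lower, with a median of 0.72; the 3 are 50% of the list, beside 25.7% of protein-coding genes. Actr1a rose from 65.5 ± 5.11 to 166 ± 68.1 CPM (1.26 ± 0.17, adjusted p = 0.00376, edgeR) and Actr1b, its close relative in the same filament, from 74.2 ± 15.5 to 185 ± 88.2 CPM (1.23 ± 0.17). Capza2, an alpha subunit of the cap, rose from 57.9 ± 13.9 to 134 ± 42.9 CPM (1.18 ± 0.20). Capza1 (0.27 ± 0.15) and Capzb (-0.11 ± 0.11) did not pass. The 3 calls of Actr1a, Actr1b and Capza2 stood in each of 14 alternatives.

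**Figure D3:**
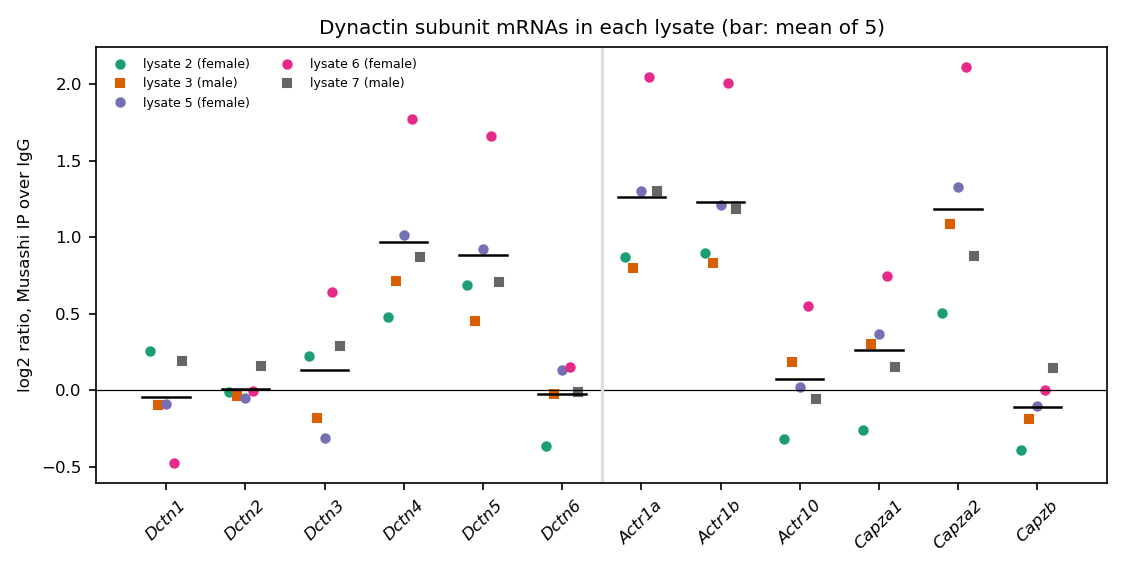
Log2 ratio of Musashi IP to IgG CPM in each lysate (points, prior count of 2) and their mean (bar) for 12 subunit genes of dynactin. Dctn4, Dctn5, Actr1a, Actr1b and Capza2 lie above 0 in all 5 lysates, while Dctn1, Dctn2, Dctn3, Dctn6, Actr10, Capza1 and Capzb have points on both sides of 0.

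Adaptors and regulators that couple the motors to cargo or switch them on gave 12 higher and 1 lower of 33, or 36.4% and 3.03%, beside 25.7% and 4.01% of protein-coding genes, with a median of 0.18. With library totals 7 were higher and without the lysate block 4. The largest were Mapk8ip2 (1.05 ± 0.17, adjusted p = 0.00463, edgeR), a JIP scaffold that binds kinesin-1, Bicd2 (0.87 ± 0.15), a dynein adaptor, Arl8b (0.70 ± 0.22, adjusted p = 0.0471), a small GTPase that recruits kinesins to lysosomes, and Zfyve27 (0.69 ± 0.12), a kinesin-binding protein of the endoplasmic reticulum. Among regulators of dynein, Nde1 (0.33 ± 0.14) and Nudc (0.30 ± 0.11) did not pass. Pafah1b1 (Lis1) and its partner Ndel1 were higher at 0.64 ± 0.15 and 0.50 ± 0.15. Trak1 (0.36 ± 0.10) and Trak2 (0.57 ± 0.15), the mitochondrial adaptors of kinesin-1, were higher as well, while their membrane receptors Rhot1 (-0.06 ± 0.09) and Rhot2 (0.17 ± 0.11) did not pass. The lower gene was Bicd1, a relative of Bicd2, at -0.25 ± 0.08 (adjusted p = 0.0468). The genes below the top 4 were named after their values were seen. Arl8b lost its call under 5 settings, and without lysate 7 the list had 4 higher members.

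Members with long 3' UTRs tended to have the larger fold changes. The longest annotated 3' UTR had a median of 2325 nt in the 11 higher genes, 663.5 nt in the 50 that did not pass and 662 nt in the 3 lower ones. Across the 64 motor genes Spearman's rho between UTR length and log2 fold change was 0.52, and across 14106 protein-coding genes it was 0.42. Protein-coding genes as a whole had medians of 2069.5 nt when higher, 954 nt when not past and 739 nt when lower, in the same order. Whole transcript length gave a rho of 0.05 over the motor genes. Genes are not independent replicates, and these values share the same libraries.

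**Figure D4:**
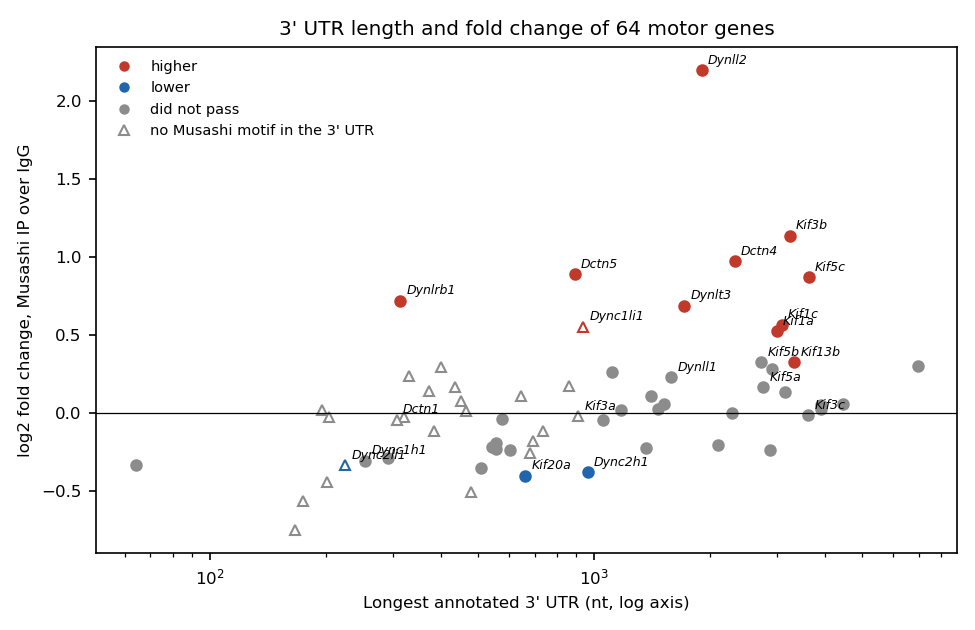
Length of the longest annotated 3' UTR (horizontal log axis, nt) against log2 fold change of Musashi IP over IgG for the 64 motor genes tested, coloured by call. The higher genes lie at 1720 nt and longer, except Dctn5 (890 nt), Dync1li1 (937 nt) and Dynlrb1 (313 nt), and long UTRs such as those of Kif1b (4449 nt) and Kif3c (3609 nt) also occur among genes near 0.

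Musashi motifs known from other work were then searched in these UTRs. The letters searched, written as DNA, were GTAGT or GTTAGT or GTTTAGT, and with A in first place ATAGT or ATTAGT or ATTTAGT, on the transcript strand alone, with overlapping matches counted apart. At least 1 motif occurred in 41 of 64 motor genes (64.1%) and in 10044 of 14106 protein-coding genes (71.2%). It occurred in 10 of the 11 higher genes (all but Dync1li1), in 29 of the 50 that did not pass and in 2 of the 3 lower ones, or 90.9%, 58.0% and 66.7%, beside 87.2%, 65.5% and 68.0% of protein-coding genes with the same calls. Motif density had a rho with log2 fold change of 0.07 over the motor genes and 0.14 over protein-coding genes, lower than those of UTR length. Over the motor genes the number of motifs, which grows with UTR length, had a rho of 0.39.

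The sequences below show one window of 30 bases per gene, from GENCODE release M21 on GRCm38, for genes recovered in excess, for related genes of near CPM that were not, and for a lower gene. Each is the window with the most motifs in the longest 3' UTR, 5' to 3', with motifs in capitals.
Dynll2: aactcctttctGTTTAGTtgcctggggaag
Dynll1: ttctgtaggATTAGTTTAGTtctcttgatg
Kif3b: tgcctgtgcacaGTAGTgcctgtgctctgg
Kif3c: tcacggagcttgGTTAGTgagaagagatcc
Kif5c: tgaaaaggactGTAGTAGTcaccagttcct
Klc1: tagatttgctgtGTAGTcttggtgtggaaa
Kif1a: attaatatacATTAGTTAGTggcgttgaaa
Dctn5: aataggagctacATAGTgagctcacacttg
Dync2h1: acGTTAGTtcaatatatctgctGTTAGTtg

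They lie at chr11:87981239-87981268 (Dynll2, minus strand), chr5:115298309-115298338 (Dynll1, minus), chr2:153331464-153331493 (Kif3b, plus), chr12:3403078-3403107 (Kif3c, plus) and chr2:49771182-49771211 (Kif5c, plus). The others lie at chr12:111794780-111794809 (Klc1, plus), chr1:93018118-93018147 (Kif1a, minus), chr7:122148890-122148919 (Dctn5, plus) and chr9:6929352-6929381 (Dync2h1, minus). The windows of Dynll1, Kif5c, Kif1a and Dync2h1 hold 2 motifs each, and the others 1.

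In the longest annotated 3' UTRs, motif counts were equal or reversed in some pairs of partner or related genes. In others they were higher in the gene that rose. Dynll2 has 3 motifs in 1908 nt and Dynll1 3 in 1586 nt; 93.3% and 88.9% of protein-coding genes with a UTR within 20% of those lengths hold at least 1. Kif3b has 3 in 3235 nt and Kif3c 3 in 3609 nt, where the median of genes with like-length UTRs is 6 and 7, while Kif3a has 0 in 908 nt (71.2% of like-length UTRs hold 1 or more). Kif5c has 9 in 3621 nt, Kif5a 4 in 2759 nt and Kif5b 11 in 2724 nt. Dctn5 has 2 in 890 nt and Dctn6 0 in 321 nt, and for a UTR like that of Dctn6 the share with a motif is 31.1%. Dync2h1, lower in Musashi IP, has 3 in 962 nt. Dync1li1, which was higher, has 0 in 937 nt, where 72.9% of like-length UTRs hold 1. With the annotated 3' UTR of median length instead, Dynll1 has 1 motif in 191 nt and Dynll2 still 3 in 1908 nt. Kif3c then has 2 in 2048 nt and Kif3b still 3 in 3235 nt, while Kif5c (9) stays below Kif5b (11). A match is a string of letters and not a measured binding site.

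The recovery of motor mRNAs was compared between sexes next. The antibody effect did not differ between females (3 lysates) and males (2 lysates) for any of the 64 motor genes at an adjusted p under 0.05, nor for any of 20550 genes (0%; edgeR interaction term). At an unadjusted p under 0.05 there were 0 motor genes and 187 genes in all, and DESeq2 also gave 0 adjusted calls. The smallest unadjusted p belonged to Kif19a, a kinesin that limits the length of cilia, with 0.08 in females and -1.08 in males (difference 1.16 ± 0.52, unadjusted p = 0.0568, edgeR). Dctn5 followed with 1.09 and 0.58 (difference 0.51 ± 0.32, unadjusted p = 0.146), then Dynlrb2, a roadblock light chain of ciliated cells, with -0.33 and 0.42 (-0.75 ± 0.47, unadjusted p = 0.148). With 2 male lysates these intervals are wide and do not show that the sexes act alike.

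Within IgG alone, 2 of 65 motor genes tested differed between females and males, beside 4.50% of 20987 genes and 4.70% of protein-coding genes (edgeR, adjusted p under 0.05). Kif26a was higher in females, at 55.9, 25.8 and 45.3 CPM in lysates 2, 5 and 6 against 15.5 and 13.5 CPM in lysates 3 and 7, with no overlap (log2 1.54 ± 0.30, adjusted p = 0.0146, edgeR). Kif19a was lower in females, at 2.01, 1.3 and 1.04 CPM against 4.58 CPM in each of the male lysates (-1.65 ± 0.40, adjusted p = 0.0380). The Kif26a call depended on lysates 3 and 7 (adjusted p = 0.177 and 0.220 with each left out), and Kif19a no longer passed without lysate 3, 5, 6 or 7 (0.246, 0.0691, 0.10 and 0.256). Leaving out a male lysate leaves a single male library, whose spread is then taken to be that of the females.

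Levels of the motor genes in IgG, compared per kb of the longest coding transcript, were led by Klc1 (94.6 ± 15.2 CPM per kb), Dctn2 (73.1 ± 9.02), Dync1h1 (68.5 ± 3.57), Kif1a (60.6 ± 7.51) and Dync1i2 (49.8 ± 3.24), against a median of 10.0 over the 64 genes. Dctn2 and Dync1h1 did not differ beyond their spread, nor did Dync1h1 and Kif1a. With the length of the union of exons in place of the longest transcript the order was Dync1h1 (62.8), Klc1 (58.2), Kif1a (53.3), Dctn2 (27.2) and Dync1i2 (15.8) among these 5 genes, so the order of their levels depends on the length used.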

How the data were processed

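RNA from Musashi immunoprecipitates and IgG controls of mouse pituitary lysates was sequenced after TruSeq Stranded Total RNA Gold library preparation, per the labels' protocols. The authors deposited raw counts per Ensembl gene, in whole numbers and with no normalization. The tools FastQC 0.11.8, Trimmomatic 0.39 and STAR 2.7.1a, and GRCm39 as the genome build, come from the submitters' processing notes. Not given in the sources used here are the counter, the annotation release, the strand setting and the handling of multimapping reads, so near-identical genes (Dynlt1a, Dynlt1b, Dynlt1c and Dynlt1f; Kifc1 and Kifc5b; Kif4 and Kif22, which have pseudogenes) are uncertain.

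Symbols, biotypes and 3' UTRs came by gene ID from GENCODE M21 on GRCm38, which matched 52083 of 55416 IDs and all 69 motor genes. In the axonemal dynein list the symbols Dnai1 and Dnai2 had no match in that release, while Dnaic1 had one and was tested. The deposited counts were tested with edgeR 4.0.16 (R 4.3.3, limma 3.58.1): filterByExpr, TMM scaling, the quasi-likelihood test with the lysate as a block, and Benjamini-Hochberg adjustment at 0.05 over all genes tested. The SE is the log2 fold change divided by the square root of F. CPM are TMM-scaled, and single-lysate log2 ratios use a prior count of 2. The fits were tested on simulated data.

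The protocol pairs the libraries, since a lysate served both antibodies. Libraries sharing a lysate deviated together from their group means, with correlations of 0.523, 0.679, 0.602, 0.186 and 0.778 for lysates 2, 3, 5, 6 and 7. The labels do not say that each lysate came from separate mice beyond separate occasions, so p-values measure the spread between these lysates. No molecular identifiers are described, so counts are not independent molecules, and 1 count equals 0.0768 to 0.150 CPM.

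The alternatives were DESeq2 size factors, library totals, DESeq2 1.42.0, limma-voom, no low-count filter, a mean of at least 2 CPM, no lysate block, offsets for transcript length and GC content, protein-coding genes alone, and leaving out each lysate. Named in each role group were up to 4 genes past the threshold by size, every lower one and the one with the most counts, and in each other list up to 4 past the threshold; others in the text were named after their values were seen. The members, lists and pairs were chosen with earlier results of these data known.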

Additional observations from a re-analysis of the deposited data

Results flagged for a closer look

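Single libraries far from the rest of their group were looked for in 102 sets of 5 values, the IgG CPM, Musashi IP CPM and log2 ratio of 34 genes, and 5 sets held one; chance alone gives about 1 in 20. Dynll2 had 57.5 CPM in IgG of lysate 2, against 26.3 to 34.3 CPM in the other IgG libraries, and 324 CPM in Musashi IP of lysate 6, against 119 to 163 CPM in the others. Dync1li1 had 61.3 CPM in IgG of lysate 2, against 51.7 to 53.5 CPM. Dync1i2 had 116 CPM in IgG of lysate 6, against 133 to 139 CPM. Dctn2 had a log2 ratio of 0.16 in lysate 7, against -0.05 to -0.01 in the other lysates.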

How the results depend on the processing

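Of the 14 motor genes past the threshold, Dynll2, Kif3b, Dctn4, Dctn5 and Kif5c passed in the main fit and all 14 alternatives; the 3 dynactin genes Actr1a, Actr1b and Capza2 did so too. None of these 17 genes changed direction in any alternative; 11 genes that did not pass, Dctn2 and Kif1b among them, did in at least 1, and the median over the motor genes went from 0.02 to -0.17 with library totals and -0.14 after the length and GC correction. Without the replicate block 7 motor genes were higher and 0 lower (11 and 3 with it, the fit by paired lysate), 4 adaptors were higher (12), and of all genes 2407 were higher (3804) and 176 lower (1727). With library totals 10 motor genes were lower, 7 adaptors higher and 4107 genes lower; with the 2 CPM filter 9 motor genes and 3232 genes were lower. Lower motor genes numbered 1 with DESeq2, 6 after the length and GC correction and 7 over protein-coding genes alone. Leaving out 1 lysate at a time gave 5 to 11 higher and 0 to 5 lower motor genes, 4 to 13 higher adaptors, and 2288 to 4188 higher and 182 to 2100 lower genes; the fewest higher genes came without lysate 7 and the fewest lower ones without lysate 5. Between the sexes in IgG, 945 genes became 1947 with no low-count filter and 172 to 1354 with a lysate left out, and 2 motor genes became 0 to 2. The median level of 10.0 CPM per kb became 7.94 with the union of exons. The 41 genes with a motif became 62 with TAG alone and 36 with the 3' UTR of median length. With that UTR the rho of motif density with log2 fold change was 0.12. Fewer lysates or genes entered some of these fits, and where TMM scaling was used its factors were computed anew from the genes kept. With the 2 CPM filter Kif13b went from 0.32 to 0.23, Dync1h1 from -0.31 to -0.40 and Dync1i2 from -0.22 to -0.32. The cause of the changes was not tested further.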

Other observations

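Axonemal dyneins, which beat motile cilia and are no part of cytoplasmic transport, had 1 higher and 3 lower genes of 17 tested (5.88% and 17.6%, beside 25.7% and 4.01% of protein-coding genes), with a median log2 fold change of -0.35 beside 0.09 over protein-coding genes and -0.07 over all genes. The higher gene was Dnal1, a light chain of the outer arm, which went from 70.8 ± 5.43 to 170 ± 58.7 CPM (1.2 ± 0.17, SE, adjusted p = 0.00386, edgeR) in 5 of 5 lysates. The heavy chain genes Dnah7b (-0.45 ± 0.10), Dnah6 (-0.42 ± 0.12) and Dnah11 (-0.41 ± 0.12) were lower in 5 of 5 lysates. All 3 lost their calls without the lysate block or without lysate 5. Dnah6 and Dnah11 also lost theirs without lysate 6 or 7 and with no low-count filter, and Dnah11 without lysate 2. Exons of Dnal1 overlap those of Pnma1 on the other strand, those of Dnah6 overlap Gm20560 and those of Dnah11 overlap Cdca7l. With the strand setting not given, reads of these genes cannot be told apart from those of the overlapping genes.

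Tubulins, the subunits of the microtubule track, had 1 higher and 0 lower of 16 tested (6.25% and 0%), with a median of -0.07. Tubb6, a beta-tubulin, went from 11.4 ± 1.79 to 20.7 ± 5.36 CPM (0.83 ± 0.13, adjusted p = 0.00481, edgeR), while Tubb5, the beta-tubulin with the most counts, stood at 66.8 ± 24.6 and 72.2 ± 21.8 CPM and did not pass (0.12 ± 0.12).

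Dynlt1b had 0 counts in both libraries of lysates 2, 3 and 6, 32 in IgG and 27 in Musashi IP of lysate 5, and 28 and 22 in lysate 7. A library with 0 allows up to 3 counts, so the lysates with counts lay above that limit with either antibody. Dynlt1a, Dynlt1c and Dynlt1f, its near-identical copies, had counts in all 10 libraries.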
